A study of Mus musculus with 4 samples.

Results

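The miR-378 family was examined in C2C12 myotubes, a mouse skeletal muscle line (strain background given as 129/Rej) whose myoblasts stop dividing and fuse into myotubes in low-serum medium. Its members were taken by name from the deposited miRNA values, and all 5 of them, miR-378a-3p, miR-378a-5p, miR-378b, miR-378c and miR-378d, were found among the 869 miRNAs detected in any sample. Small RNA was sequenced on day 6 of differentiation from 2 samples in medium with horse serum alone (NC) and from 2 samples in the same medium with 20 mM guanidinoacetic acid (GAA), the direct precursor of creatine. Both groups are the same cell line, and no label says whether the samples of a group were separate cultures, so the spread between them may be technical. The question asked here is how each member stood in NC and GAA, both in RPM, a read count scaled to the mappable reads of its library, and as a share of all miRNA reads. Values of a group are given for replicate 1 first and replicate 2 second.

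A miRNA guides the Argonaute protein to mRNAs that pair with its seed, bases 2 to 8 from its 5′ end, and lowers their translation or stability. miR-378a is made from an intron of Ppargc1b, the gene of PGC-1β, a coactivator of mitochondrial and fatty acid oxidation genes, and its arms are known to act on energy metabolism in muscle, liver and fat. In myoblasts miR-378a-3p is known to rise during differentiation and to lower the myogenic repressor MyoR. miR-378b, miR-378c and miR-378d are paralogs at other loci, with mature sequences so alike that short reads can be hard to assign among them.

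The mature sequences of 3 members are shown from the RefSeq miRNA table (GRCm38.p6), because the differences between them decide how reads are assigned. Both arms of miR-378a were left out of this comparison. How miR-378a-3p differs from the sequences shown was therefore not examined. They are written 5′ to 3′ with the seed in capitals.
miR-378b: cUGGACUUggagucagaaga
miR-378c: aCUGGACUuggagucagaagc
miR-378d: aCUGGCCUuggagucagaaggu
The 3 seeds differ. miR-378c and miR-378d, counted from 1 at the 5′ end of miR-378c, differ by A6C, which lies inside the seed, and by C21G at the 3′ end. miR-378d is also longer, at 22 bases against 21. miR-378b begins at position 2 of miR-378c, so that its seed is read 1 base further along, and differs from it only by C21A, its last base. The longest run of bases shared by miR-378b and miR-378c is 19 and that shared by miR-378c and miR-378d is 14.

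The place of the mature miRNA in its hairpin also differed, as the RefSeq hairpins show with the mature sequence in capitals.
miR-378b hairpin: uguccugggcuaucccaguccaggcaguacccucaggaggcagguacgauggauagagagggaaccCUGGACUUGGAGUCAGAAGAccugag
miR-378c hairpin: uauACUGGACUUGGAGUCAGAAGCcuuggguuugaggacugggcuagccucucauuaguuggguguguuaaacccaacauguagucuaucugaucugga
miR-378d hairpin: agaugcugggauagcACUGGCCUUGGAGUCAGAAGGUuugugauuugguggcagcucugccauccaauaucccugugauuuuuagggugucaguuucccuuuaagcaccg
miR-378b occupies bases 67 to 86 of a hairpin of 92 bases, on its 3′ side. miR-378c occupies bases 4 to 24 of 99 and miR-378d bases 16 to 37 of 110, on the 5′ side of each. Mir378b lies on the plus strand at chr11:88352773-88352864 (GRCm38), Mir378c on the minus strand at chr14:46954830-46954928 and Mir378d on the minus strand at chr10:126710282-126710391.

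The libraries held between 4732359 and 5657704 mappable reads. Known miRNAs took 33.6% and 43.6% of them for NC and 56.3% and 50.4% for GAA, so that a miRNA with a constant share of miRNA reads had a higher RPM in both GAA samples. All 4 skeletal muscle markers checked were present, and their sum was 5607 and 7078 RPM for NC against 4513 and 4888 RPM for GAA. Several markers of other tissues exceeded the detection floor of 3 reads (0.530 to 0.634 RPM). The 5 epithelial markers summed to 1.24 to 2.44 RPM, the liver marker miR-122-5p lay between 0 and 3.05 RPM, the 6 blood and serum markers summed to 11.0 to 21.02 RPM, and the 2 neuronal markers summed to 28.0 to 59.8 RPM, nearly all of it miR-9-5p. Among the blood markers, miR-142a-5p stood at 6.09 and 7.18 RPM for NC and at 16.9 and 13.4 RPM for GAA. miR-142a-3p stood at 1.22 and 1.06 RPM for NC (6 and 5 reads) and at 2.52 and 1.59 RPM for GAA (14 and 9 reads). Both GAA samples were higher for these arms of miR-142a. They were lower for miR-144-3p, at 5.08 and 1.90 RPM for NC (25 and 9 reads) and 0.180 and 0.707 RPM for GAA (1 and 4 reads). The same held for miR-451a, at 2.03 and 0.845 RPM for NC (10 and 4 reads) and 0.719 and 0.177 RPM for GAA (4 and 1 reads). A value of 1 read is under the floor of 3 reads. Over all 869 miRNAs, both GAA samples were above both NC samples in RPM for 38.6% and below them for 5.52%. miR-223-3p, a defining marker of myeloid cells, had 1 read in GAA-1 and 0 in the other samples. Their part in the values below was not tested.

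miR-378a-3p, the main product of the family, stood at 6869 and 9605 RPM in the NC samples, from 33829 and 45455 reads, and at 12568 and 10469 RPM in the GAA samples, from 69959 and 59229 reads. Both GAA samples lay above both NC samples, but NC-1 and NC-2 differed by 2736 RPM, more than NC-2 differed from GAA-2. The NC mean was 8237 ± 1935 RPM and the GAA mean 11518 ± 1484 RPM (SD, n = 2 each), a ratio of 1.40. Its log2 fold change was 0.50 (standard error 0.26, 95% interval -0.21 to 1.21) and it did not pass the test (limma with Benjamini-Hochberg adjustment over all 869 miRNAs, adjusted p = 0.385). In these bulk samples a different level per cell and a different fraction of expressing cells cannot be told apart. Its share of miRNA reads was 2.05% (95% Wilson interval 2.02% to 2.07%) and 2.20% (2.18% to 2.22%) for NC, and 2.23% (2.22% to 2.25%) and 2.08% (2.06% to 2.09%) for GAA. The groups overlapped on that scale, with means of 2.12% ± 0.11 in NC and 2.15% ± 0.11 in GAA (SD, n = 2). The intervals cover counting error only, and each group spread by 0.15 to 0.16 percentage points between its samples, which is wider than they are.

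**Figure D1:**
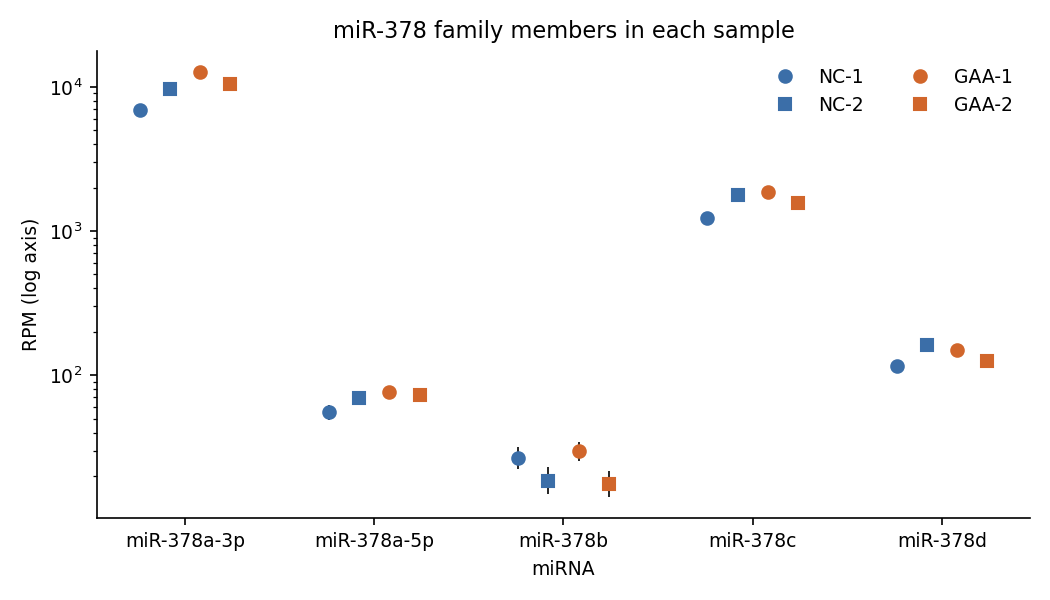
RPM of the 5 members in each sample on a log axis, with NC in blue, GAA in orange, circles for replicate 1 and squares for replicate 2, and vertical lines for the exact 95% Poisson interval of the reads, which are hidden by the points except for miR-378b. The members keep one order in every sample, from miR-378a-3p near 10469 RPM in GAA-2 to miR-378b near 17.7 RPM.

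miR-378c was the next most abundant member, with 1223 and 1786 RPM in the NC samples and 1869 and 1555 RPM in the GAA samples. GAA-2 lay below NC-2, so the groups overlapped. Its log2 fold change was 0.21 ± 0.26 (SE), at a limma adjusted p of 0.627, and its rank by mean RPM was 40 of 869, against 7 for miR-378a-3p. It took 0.364% and 0.409% of the miRNA reads in NC and 0.332% and 0.309% in GAA. On this scale both GAA samples were below both NC samples, and the log2 fold change was -0.27 ± 0.19 (SE), at a limma adjusted p of 0.777.

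miR-378d, whose seed carries the A6C difference from miR-378c, stood at 116 and 161 RPM in the NC samples and at 149.8 and 126 RPM in the GAA samples. The GAA values fell between the NC values, and the log2 fold change was 0.01 (standard error 0.23, 95% interval -0.64 to 0.65, adjusted p = 0.981 with limma). Its share of miRNA reads was 0.0346% and 0.0368% for NC and 0.0266% and 0.0250% for GAA. The GAA mean of that share was 0.723 of the NC mean, and the gap between groups was wider than the gap between the samples of either group. The log2 fold change on the share scale was -0.47 (standard error 0.19, 95% interval -0.89 to -0.04), and it too missed the test after adjustment (adjusted p = 0.550 with limma).

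miR-378b was the least abundant member, at 131 and 88 reads for NC and 165 and 100 reads for GAA. These gave 26.6 RPM (exact 95% Poisson interval 22.2 to 31.6) and 18.6 RPM (14.9 to 22.9) for NC, and 29.6 RPM (25.3 to 34.5) and 17.7 RPM (14.4 to 21.5) for GAA. Replicate 1 exceeded replicate 2 by 1.43 times in NC, where the intervals overlapped, and by 1.68 times in GAA, where they did not, and the groups overlapped on both scales. The log2 fold change was 0.04 with a standard error of 0.35, the largest of the 5 members, and a 95% interval of -0.91 to 0.995 (adjusted p = 0.946 with limma). In RPM, NC-1 was the higher NC sample for miR-378b and NC-2 for the other 4 members, while GAA-1 was the higher GAA sample for all 5.

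miR-378a-5p, the minor arm of the miR-378a hairpin, stood at 55.4 and 69.9 RPM in the NC samples and at 76.5 and 72.5 RPM in the GAA samples. Both GAA samples were above both NC samples, with GAA-2 above NC-2 by less than the difference between NC-1 and NC-2, and the log2 fold change was 0.25 ± 0.19 (SE), at a limma adjusted p of 0.524. In share of miRNA reads the order turned, with 0.0165% and 0.0160% for NC against 0.0136% and 0.0144% for GAA. The log2 fold change on that scale was -0.22 ± 0.20 (SE), at a limma adjusted p of 0.781.

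The arms of miR-378a were strongly unequal in every sample. For each read of miR-378a-5p there were 124 and 137 reads of miR-378a-3p for NC and 164 and 144 for GAA, so both GAA samples had the higher ratio, as 24.7% of the 85 precursors described below also did. miR-378a-5p made up 0.801% (95% Wilson interval 0.711% to 0.901%) and 0.723% (0.649% to 0.805%) of the reads of both arms for NC, and 0.605% (0.551% to 0.665%) and 0.687% (0.624% to 0.757%) for GAA. Of the 4 pairs of an NC and a GAA sample, only NC-1 and GAA-1 had intervals that did not overlap. An overlap of intervals does not decide whether 2 samples differ, and the order within the other pairs was not tested. Among the 85 precursors whose arms both reached 10 reads in all 4 samples, miR-378a ranked 18 for the inequality of its arms, at 7.15 on the log2 scale against a median of 4.11. The GAA minus NC change of this log2 ratio was 0.24 for miR-378a, and 54.1% of the precursors changed by at least as much in either direction.

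Summed over the 5 members, the family held 8291 and 11641 RPM in the NC samples and 14693 and 12239 RPM in the GAA samples. The GAA mean was 1.35 times the NC mean, a log2 ratio of 0.43, which was 0.21 without NC-1, 0.70 without NC-2 and 0.30 without GAA-1. As a share of miRNA reads the family held 2.47% and 2.67% for NC and 2.61% and 2.43% for GAA, where the groups overlapped and the ratio of means was 0.981. miR-378a-3p supplied 82.9% and 82.5% of the family reads for NC, and 85.5% in each GAA sample. miR-378c supplied 14.8% and 15.3% in NC and 12.7% in each GAA sample, and miR-378d 1.40% and 1.38% in NC against 1.02% and 1.03% in GAA. miR-378a-5p supplied 0.669% and 0.601% in NC and 0.521% and 0.592% in GAA. The proportion of family reads did not overlap between the groups for these 4 members and overlapped for miR-378b, while 41.5% of the 323 miRNAs that reached 10 reads in all 4 samples did not overlap when divided by the family's reads. The proportions of the 5 members add up to the whole family, so a rise of miR-378a-3p lowers the rest and these are not separate results. Most of the 323 miRNAs are outside the family and not bound in this way.

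**Figure D2:**
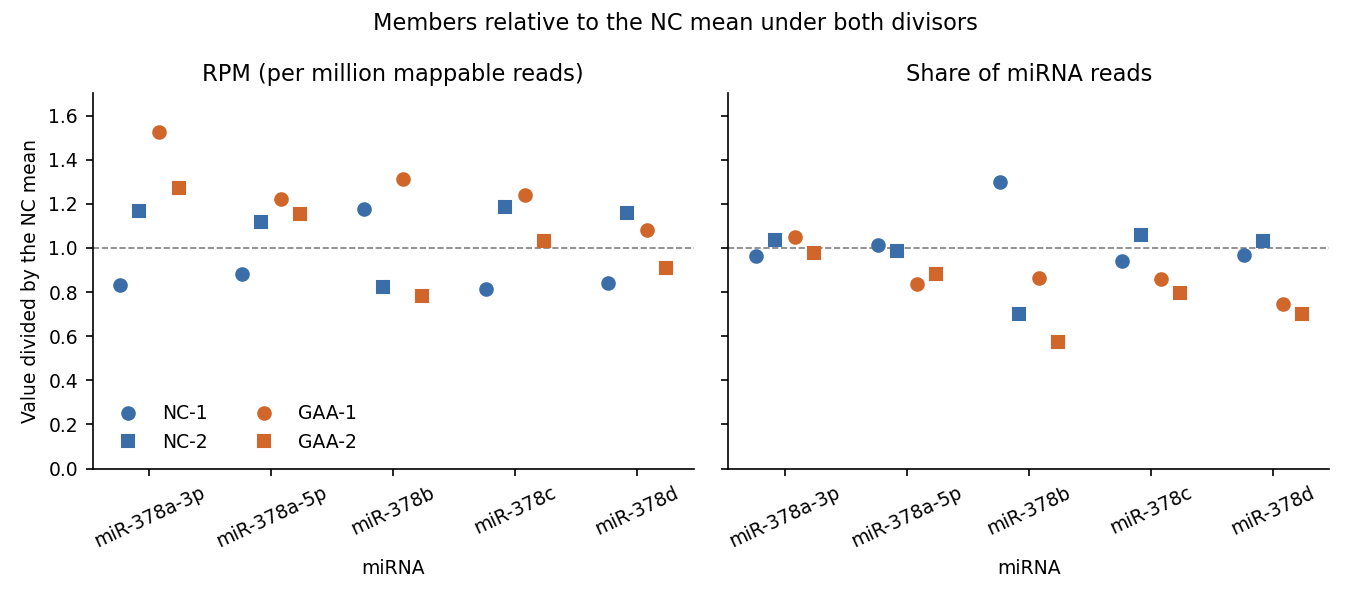
Each sample's value divided by the mean of the NC samples, for RPM on the left and for the share of miRNA reads on the right, with the dashed line at 1 and the same colors and shapes for NC and GAA. Both GAA samples of miR-378a-3p are above both NC samples on the left, and on the right 1 of them (GAA-1) is above both and the other between them, while those of miR-378d lie among the NC samples on the left and below them on the right.

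The paralogs were then compared within each sample, which removes the divisor. miR-378c had 17.8 reads per 100 reads of miR-378a-3p in NC-1 (95% interval from the Wilson method 17.3 to 18.3) and 18.6 in NC-2 (18.2 to 19.0). Both GAA samples had 14.9 (14.6 to 15.2 and 14.5 to 15.2). The 2 GAA samples agreed within counting error, and both lay below the NC samples, at 0.816 of the NC mean. miR-378d had 1.69 reads per 100 of miR-378a-3p (1.56 to 1.84) and 1.67 (1.56 to 1.80) for NC, against 1.19 (1.11 to 1.28) and 1.20 (1.12 to 1.29) for GAA. Here the samples of each group agreed within counting error, and the GAA mean was 0.712 of the NC mean. On the log2 scale these differences were -0.29 for miR-378c and -0.49 for miR-378d. The ratio of miR-378b to miR-378a-3p did not separate the groups, with 0.387 and 0.194 reads per 100 for NC and 0.236 and 0.169 for GAA. A comparison of 2 samples with 2 cannot give a two-sided exact permutation p below 0.333, so no p is given for a single ratio. Such an order was not rare, since 21.4% of the 322 other miRNAs that reached 10 reads in all 4 samples also had both GAA ratios to miR-378a-3p below both NC ratios. Because reads of near-identical paralogs can be assigned to the wrong member, the levels of miR-378b, miR-378c and miR-378d relative to miR-378a-3p are uncertain. The reads recovered for all 5 members were whole in every sample.

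**Figure D3:**
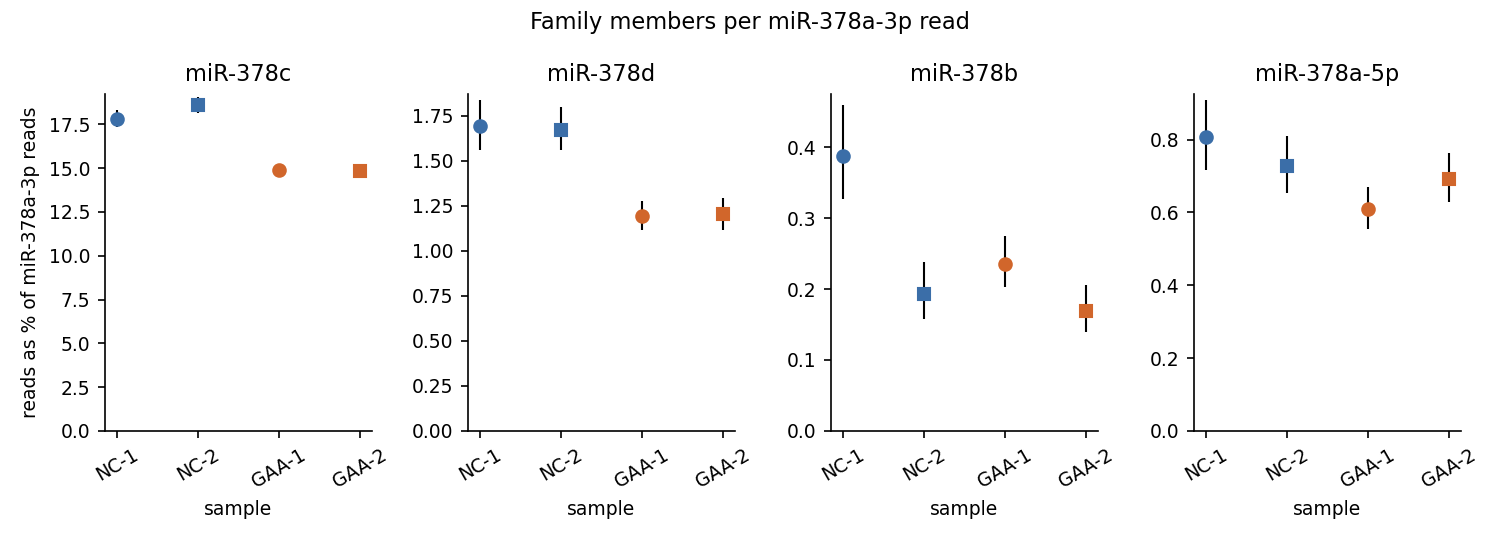
Reads of miR-378c, miR-378d, miR-378b and miR-378a-5p as a percentage of the miR-378a-3p reads of the same sample, with vertical lines for 95% intervals from the Wilson method and each vertical axis starting at 0 with its own scale. The GAA samples of miR-378c (14.9% in both) and miR-378d (1.19% and 1.20%) sit below the NC samples by more than the intervals, whereas miR-378b is spread widest between NC-1 (0.387%) and NC-2 (0.194%).

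The members were then set against all miRNAs. At the thresholds of the study's methods (FDR below 0.01, fold change beyond 1 on the log2 scale in either direction), limma called 0 of 869 miRNAs (0%), and so 0 of the 5 members, with 152 miRNAs at an unadjusted p under 0.05 and none of the members among them. Limma voom on the recovered reads called 8 miRNAs and again 0 members. In RPM, 2 of the 5 members, both arms of miR-378a, had both GAA samples above both NC samples. That order was found in 38.6% of all 869 miRNAs and in 64.4% of the 323 that reached 10 reads in all 4 samples, which include all 5 members. In share of miRNA reads, 3 of the 5 members (miR-378a-5p, miR-378c and miR-378d) had both GAA samples below both NC samples, an order found in 19.8% of the 323, and 0 members had them above, an order found in 22.9%.

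The median log2 fold change over these 323 miRNAs was 0.49 in RPM and 0.02 in share of miRNA reads. miR-378a-3p, at 0.50 and 0.02, was thus at the middle of the distribution on both scales, above 52.0% and 49.2% of the miRNAs. miR-378d was toward its lower end on both, above 8.36% of the miRNAs in RPM and 7.74% in share. miR-378a-5p, miR-378b and miR-378c lay between them on both scales.

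**Figure D4:**
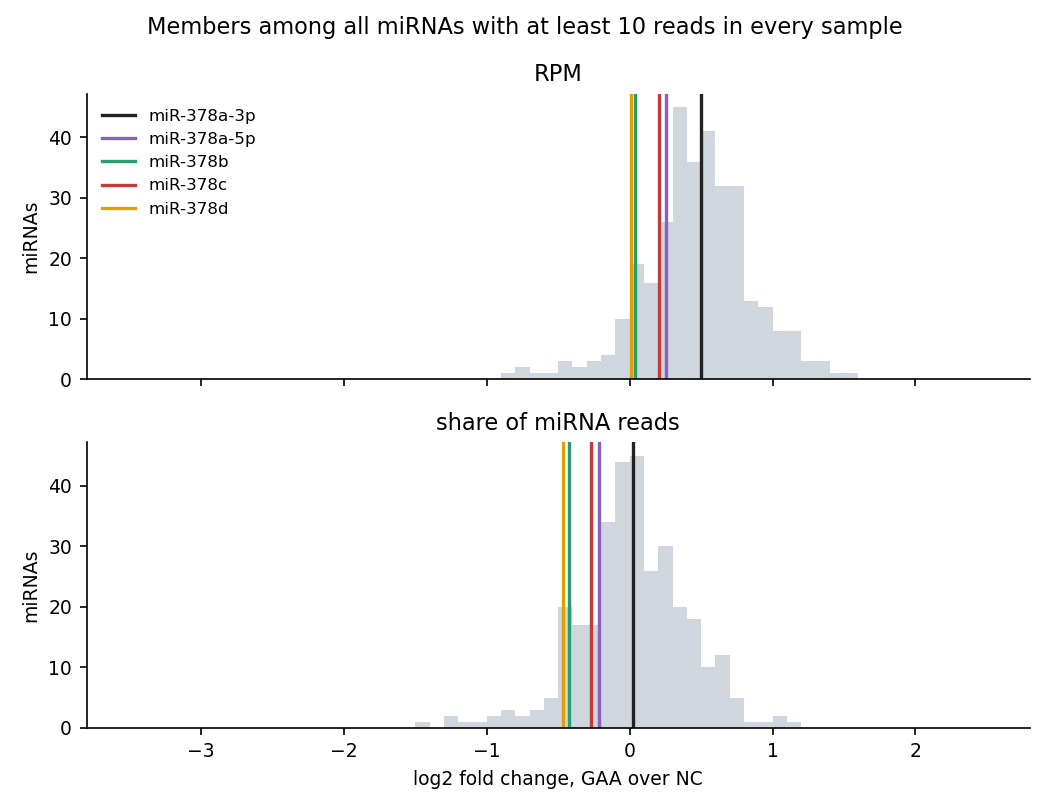
Number of miRNAs by log2 fold change of GAA over NC for the 323 miRNAs that reached 10 reads in all 4 samples, in RPM above and in share of miRNA reads below, with a vertical line for each member. The whole distribution moves from a median of 0.49 to 0.02 between the panels, and miR-378a-3p (0.50 and 0.02) moves with it while miR-378d (0.01 and -0.47) stays on its left side.

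By mean RPM over the 4 samples, miR-378a-3p ranked 7, between miR-30a-5p at 15521 RPM and miR-181a-5p at 9730 RPM, and was itself at 9878 RPM. The order of miR-378a-3p and miR-181a-5p was not the same in both groups. miR-181a-5p had 10508 ± 3802 RPM in NC, above miR-378a-3p, and 8952 ± 708 RPM in GAA, below it (SD, n = 2), and in NC the means differed by less than the SD of miR-181a-5p. miR-26a-5p, at rank 5, and miR-191-5p, at rank 9, had means of 18522 RPM and 6707 RPM.

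The miRNAs whose level moved most like that of miR-378a-3p were found by the Euclidean distance between centered log2(RPM + 1) values of the 4 samples, among 322 candidates that reached 10 reads in all 4 samples. The nearest were miR-140-3p (distance 0.08), miR-31-3p (0.08), miR-29b-3p (0.08), miR-181a-1-3p (0.10) and miR-26a-2-3p (0.10). miR-140-3p stood at 2341 and 3102 RPM for NC and at 3997 and 3465 RPM for GAA, the same order of samples as for miR-378a-3p. The family's own members were not among the nearest. miR-378c came at rank 62, miR-378a-5p, from the same hairpin, at rank 67, miR-378d at rank 186 and miR-378b at rank 296 of 322. A profile of 4 samples in which 91.6% of these miRNAs had a higher mean RPM in GAA gives only a loose measure of likeness.

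Other miRNAs known in muscle or metabolism were described as lists, for comparison with the family. Of 7 muscle-enriched miRNAs, 5 had both GAA samples below both NC samples in RPM and 0 had them above, with a median log2 fold change of -0.49, and 0 passed the test. Both GAA samples were below both NC samples in RPM for 5.52% of all 869 miRNAs and for 2.79% of the 323. miR-133a-3p, which restrains serum response factor, had an NC mean of 3423 ± 515 RPM and a GAA mean of 2330 ± 112 RPM (SD, n = 2 each). Relative to it, miR-378a-3p was 2.25 and 2.54 times as abundant for NC and 5.58 and 4.35 times as abundant for GAA. In share of miRNA reads the log2 fold change was 0.02 for miR-378a-3p and -1.02 for miR-133a-3p. How many other miRNAs had this order relative to miR-133a-3p was not counted. Both GAA samples were above both NC samples in RPM for 38.6% of all 869 miRNAs and for 64.4% of the 323. Of 12 miRNAs with reported roles in lipid, glucose or mitochondrial metabolism, 11 were detected and 0 passed the test. Among these 11, 7 had both GAA samples above both NC samples, near the share of the 323, and 1 had them below. Their median log2 fold change was 0.40 in RPM and -0.08 in share of miRNA reads, beside 0.49 and 0.02 for the 323 miRNAs above. In this list miR-27b-3p had a log2 fold change of 0.57 (adjusted p = 0.276 with limma) and miR-103-3p, from introns of the pantothenate kinase genes, one of 0.31 (adjusted p = 0.524 with limma), although its recovered reads were not whole in every sample. Of 10 miRNAs chosen because they lie in introns of well-known genes, as miR-378a does, 4 were above, 3 below and 3 overlapped. Their median was 0.21 in RPM and -0.26 in share. This list is not separate from those above. It repeats miR-208b-3p, miR-499-5p and miR-486a-5p of the muscle-enriched list and miR-33-5p, miR-103-3p and miR-107-3p of the metabolism list.

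In GRCm38 with the GENCODE M21 annotation, Mir378a lies at chr18:61397835-61397900 on the minus strand, within an intron and on the strand of Ppargc1b (chr18:61298136-61400431), 2531 bases from the 5′ end of that gene. A second miRNA gene, Gm25301, is annotated over it on the opposite strand. Of the paralogs, Mir378b lies within an intron of Msi2 and Mir378c within an intron of Samd4, in both cases on the strand opposite to the gene. No other gene is annotated over Mir378d, and the nearest protein-coding gene, Atp23, is 158036 bases away. miR-378a is therefore the only one of the 4 precursors on the strand of an annotated protein-coding host. The RNA of Ppargc1b was not measured in these small RNA libraries.

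**Figure D5:**
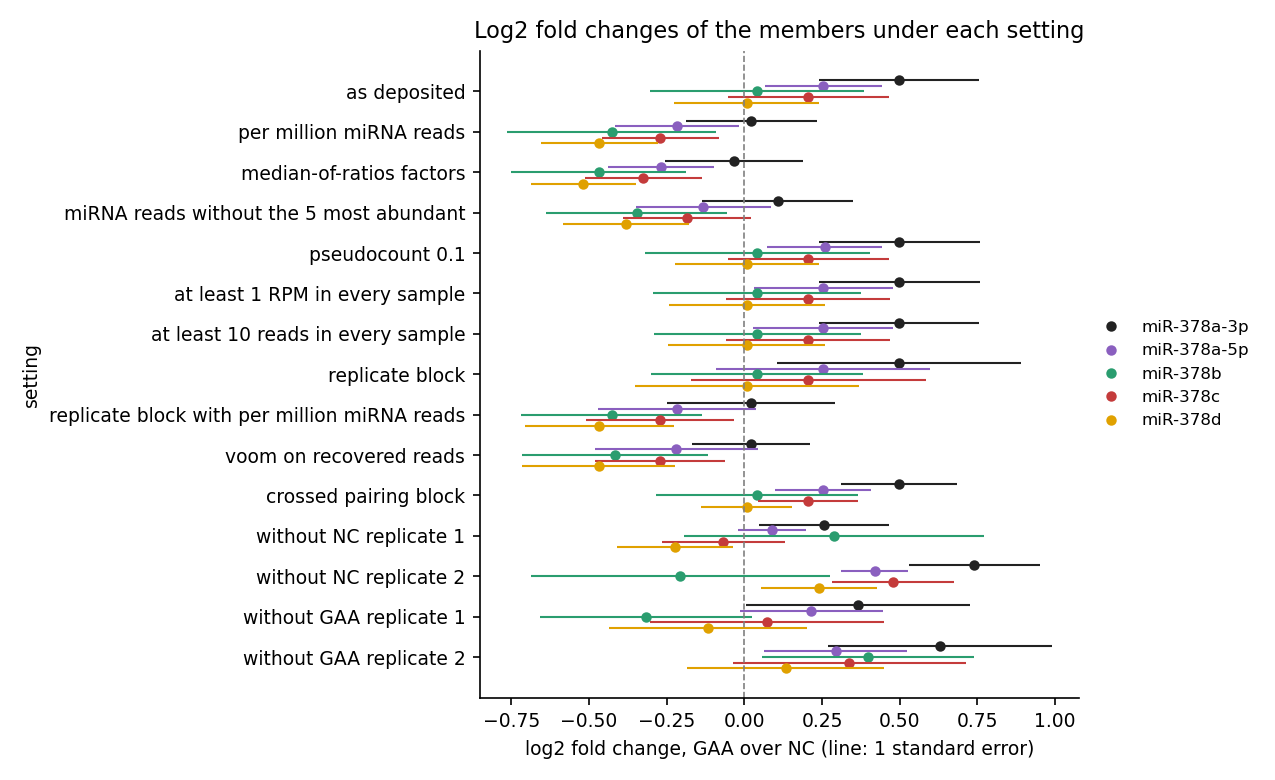
Log2 fold change of GAA over NC for each member as deposited and under the 14 other settings, with lines of 1 standard error either side and the dashed line at 0. Settings that divide by miRNA reads or by factors from the miRNAs move all 5 members to the left, to -0.47 for miR-378d and 0.02 for miR-378a-3p with miRNA reads as the divisor.

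Over the 14 other settings, the log2 fold change of miR-378a-3p ranged from -0.033 to 0.74 and was above 0 in 13, whereas that of miR-378d ranged from -0.52 to 0.24 and was below 0 in 7. These counts are not of separate results. By construction, either filter, the replicate block and the crossed pairing leave the log2 fold change as deposited. The replicate block with miRNA reads likewise repeats the value of that divisor. None of the 70 values of the members passed the thresholds, and the lowest adjusted p was 0.199 (limma, crossed pairing, miR-378a-3p).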

How the data were processed

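The authors filtered adaptors, low-quality and repeated sequences and reads outside 14 to 36 nt, mapped clean reads to GRCm38.p5, counted known miRNAs of miRBase 21 with miRDeep2, and deposited log2 values, log2(RPM + 1), 1 file per sample. Mismatch and multi-mapping settings were not given in the sources used here. The column header names no base and puts the 1 outside the logarithm, so both were taken from the spacing of the values. In each sample, RPM rose in steps of 0.177 to 0.211, the worth of 1 read. Between 95.4% and 96.0% of values were within 0.1 of whole reads, so reads were recovered, giving 1653803 and 2065461 miRNA reads for NC and 3134241 and 2850828 for GAA. A miRNA without a value was set to 0. Replicates differed beyond counting error (chi-square per degree of freedom 135 in NC and 117 in GAA).

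Groups were tested by limma (version 3.58.1, R 4.3.3, mean-variance trend, pseudocount 1, no filter, condition as the only term) over 869 miRNAs. The authors' own count test was not repeated, and voom on the recovered reads served as the alternative for counts. Members and lists were chosen with earlier results of these data known. The rule for named miRNAs was the members, the 5 nearest profiles, the neighbors by abundance, and listed miRNAs in their written order. Alternatives were other divisors, a pseudocount of 0.1, filters, a replicate block, voom and each sample left out. Figures were drawn with matplotlib 3.10.9.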

Additional observations from a re-analysis of the deposited data

How the results depend on the processing

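The log2 fold changes of the members depended on the divisor. With miRNA reads as the divisor, miR-378a-5p was at -0.22, miR-378b at -0.43, miR-378c at -0.27 and miR-378d at -0.47, all opposite in sign to the values in RPM, with the same values when the replicate block was added. Limma voom on recovered reads gave -0.22, -0.42, -0.27 and -0.47 in the same order, median-of-ratios factors gave -0.27, -0.47, -0.33 and -0.52, and miRNA reads without the 5 most abundant miRNAs gave -0.13, -0.35, -0.18 and -0.38. miR-378a-3p changed sign only with median-of-ratios factors, to -0.033. The log2 ratio of the family's GAA and NC means was 0.43 in RPM and -0.028 with the summed miRNA RPM as divisor. These divisors set aside the higher miRNA fraction of the GAA libraries by construction.

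Leaving out single samples gave miR-378a-3p values of 0.26 to 0.74, miR-378a-5p values of 0.09 to 0.42, miR-378b values of -0.32 to 0.40, miR-378c values of -0.068 to 0.48 and miR-378d values of -0.22 to 0.24. The family's log2 ratio was 0.21 to 0.70, and the difference in the miR-378a-5p proportion of both arms -0.156 to -0.074 percentage points. miR-378b was at -0.21 without NC-2 and -0.32 without GAA-1, miR-378c at -0.068 without NC-1, and miR-378d at -0.22 without NC-1 and -0.12 without GAA-1. The cause was not tested. A group left with 1 sample was assumed to vary like the other.

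The count of called miRNAs was 0 as deposited, with either filter, with a pseudocount of 0.1, at an FDR under 0.05 with no limit on the fold change, and with each sample left out. It was 1 with miRNA reads as the divisor, 1 with median-of-ratios factors, 1 without the 5 most abundant miRNAs, and 8 with voom. With the replicate block it was 0, and 6 with the block and miRNA reads as the divisor. The replicate block left the log2 fold change of miR-378a-3p at 0.50 (adjusted p = 0.606 with limma). Deviations of NC-1 and GAA-1 from their group means correlated at -0.15 over 323 miRNAs, so the numbers were not taken as pairs, and a crossed pairing, added after seeing the data, gave 0 calls. Depth limited miR-378b most, with 88 to 165 reads.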
